A study of Homo sapiens with 12 samples.

Results

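The amino acid transporter families were measured as the messenger RNA of genes whose symbols belong to the solute carrier families SLC1A, SLC3A, SLC6A, SLC7A, SLC36A, SLC38A and SLC43A. A gene was kept when its mean over the 12 libraries was at least 0.3 CPM, the usual normalised read count, that is, reads scaled to a common library total after TMM adjustment of the totals. This gave 30 of the 59 family symbols counted, among 26485 gene symbols in all. All 30 had enough reads to be tested, as had 13619 genes in all. Of the 29 symbols below the threshold, 21 had at least 1 read and 8 had 0 reads in every library. SLC6A18, at 0.401 CPM, lay just inside the threshold, and SLC6A16, at 0.246 CPM, lay just outside it. SLC6A18 was the 1 gene that passed only through the group where it was high, since its mean over the other 3 groups was 0.195 CPM.

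The cells were DLD1, an established line from a human colon cancer. They were exposed for 1 h to TCDD (10 µM), Kyn (10 µM), CH (10 µM) or DMSO, with 3 poly(A) RNA libraries in each group. TCDD is a dioxin and the prototypical strong ligand of the aryl hydrocarbon receptor (AHR), a transcription factor, Kyn is kynurenine, a tryptophan breakdown product that can act as an AHR ligand, and DMSO is the usual solvent control. The labels do not spell out the name CH, the protocol text that gives the exposure time does not list it, and no label gives the origin of the 3 libraries of 1 group (separate dishes or repeat preparations), so p-values here reflect the spread among these libraries, which may be technical.

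Amino acids cross membranes through carriers, and most cells run several carriers for each amino acid. Some of them load amino acids with sodium or protons, and others exchange an amino acid inside for another outside. SLC7A5, known as LAT1, is an exchanger of large neutral amino acids such as leucine and tryptophan that also carries kynurenine, and it reaches the cell surface only when joined to the glycoprotein SLC3A2, known as 4F2hc or CD98. SLC7A11, which brings cystine into the cell in exchange for glutamate, uses the same partner. When amino acids run short or the endoplasmic reticulum is stressed, the transcription factor ATF4 switches on carriers and enzymes of amino acid synthesis, often through a short DNA element bound by C/EBP and ATF proteins.

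Stretches of promoter are shown because this C/EBP-ATF element and the AHR element were searched for in the 250 bases before and 50 bases after each start site (RefSeq, build GRCh38.p14). The table held promoters of 26 of the 30 genes, in 47 windows, and did not list SLC6A6, SLC7A11, SLC7A2 or SLC1A2. Letters TGATGNAAN, read on both strands, marked the C/EBP-ATF element, and 6 of the 26 genes held it (23.1%) against 4.45% of 27305 symbols in the table. Counted by window, it was in 6 of 47 windows (12.8%) against 3.61% of 35116. Of the genes with the element, only SLC7A1 had no further window without it. For SLC1A4, SLC1A5, SLC38A1 and SLC3A2 it lay at a start site inside the gene, and the window at the outermost start listed held none. In the lines below the element stands in capitals, each stretch runs 5′ to 3′ on the strand of its gene, and a name with "opposite" has its match on the other strand.
SLC7A1 (chr13:29595647-29595707, minus strand): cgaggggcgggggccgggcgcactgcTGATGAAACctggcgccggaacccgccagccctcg
SLC1A4 (chr2:64989365-64989425, plus strand, opposite): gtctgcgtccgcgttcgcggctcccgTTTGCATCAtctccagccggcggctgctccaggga
SLC1A5 (chr19:46784877-46784937, minus strand): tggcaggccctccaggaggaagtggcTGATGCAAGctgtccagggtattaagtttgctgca
SLC38A1 (chr12:46266486-46266546, minus strand): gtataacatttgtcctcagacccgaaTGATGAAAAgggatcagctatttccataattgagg
SLC1A3 (chr5:36596342-36596402, plus strand): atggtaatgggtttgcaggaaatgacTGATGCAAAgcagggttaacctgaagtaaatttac
SLC3A2 (chr11:62881709-62881748, plus strand, opposite): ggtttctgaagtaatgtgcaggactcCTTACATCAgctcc
The core of the AHR element, GCGTG on either strand, is shorter and was in 17 of the 26 genes (65.4%), against 40.6% of all symbols, and by window in 23 of 47 (48.9%) against 36.5%. Its longer form TNGCGTG, which contains the core, was in 5 of the 26 genes (19.2%) against 6.69% of all symbols. By window it was in 5 of 47 (10.6%) against 5.51%. SLC7A5 held the core once, on the opposite strand, and its stretch is given with the core in capitals.
SLC7A5 (chr16:87869650-87869706, minus strand, opposite): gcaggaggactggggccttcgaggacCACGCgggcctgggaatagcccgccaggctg
A match describes these letters in this window only.

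Reads on genes numbered 21397703 to 28247146 per library (median 26666641). Of 11 colon epithelial markers, 9 reached a mean of 1 CPM, with CDX1 and LGALS4 below it, and their summed level was 8995 to 9183 CPM with TCDD, 9719 to 10032 CPM with Kyn, 9420 to 9668 CPM with CH and 9216 to 9743 CPM in DMSO. Of 12 markers of blood, connective tissue, vessel, nerve and liver cells, 1 reached 1 CPM (CD68), and their sum stayed between 4.04 and 6.59 CPM in the 12 libraries. CYP1A1, the classical AHR target, averaged 427 ± 15.9 CPM with TCDD, 10.1 ± 1.01 CPM with Kyn and 0.520 ± 0.188 CPM with CH, against 3.21 ± 0.142 CPM in DMSO (SD, n = 3 each). CYP1B1, TIPARP and AHRR, other AHR targets, had log2 fold changes over DMSO of 2.36, 1.72 and 1.901 with TCDD, of -0.37, -0.21 and -0.28 with Kyn (AHRR not called) and of -1.33, -0.40 and -1.34 with CH. Kyn replicate 1 differed more from the other 2 Kyn libraries than these did from each other. The mean squared difference in counts was 4.64 and 4.60 times that of Poisson noise, against 1.76 for the other pair. DMSO replicate 1 likewise differed from DMSO replicates 2 and 3 by 4.02 and 3.17 times Poisson noise, against 2.79 for that other pair. Reads outside annotated genes made up 7.33 ± 0.282% with TCDD, 7.06 ± 0.238% with Kyn and 6.97 ± 0.357% with CH, against 7.94 ± 0.666% in DMSO, and their part in the results was not tested.

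CH changed more of the transporters than TCDD or Kyn did, counted against DMSO. Compared with DMSO, 12 of the 30 genes were higher with CH and 8 were lower at an adjusted p under 0.05 (edgeR quasi-likelihood test, Benjamini-Hochberg adjustment over 13619 genes), and of all genes tested 15.9% were higher and 16.9% lower. The genes that rose most were SLC6A9, a glycine carrier, SLC7A11, SLC43A1, a carrier of branched-chain amino acids, SLC1A4, SLC6A14, SLC7A1 and SLC1A5. Those that fell most were the glutamate carrier SLC1A3, SLC7A6 and the taurine carrier SLC6A6. The median log2 fold change of the 30 genes was 0.08 and the median of its absolute size was 0.30, against 0.00 and 0.12 over all genes tested. Compared with DMSO, 5 of the 30 genes were higher and 1 was lower with TCDD, where 5.91% of all genes were higher and 5.83% lower. SLC6A18 was among the 5, and its high TCDD libraries put it among the 30 genes, so without it 4 of 29 were higher and 1 was lower. With Kyn 0 of 30 were higher and 0 lower, where 0.154% and 0.14% of all genes were called. The 3 comparisons share the DMSO libraries, so their values are given side by side and not as separate evidence. In bulk RNA, fewer cells expressing a gene and less RNA of it per cell cannot be told apart.

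**Figure D1:**
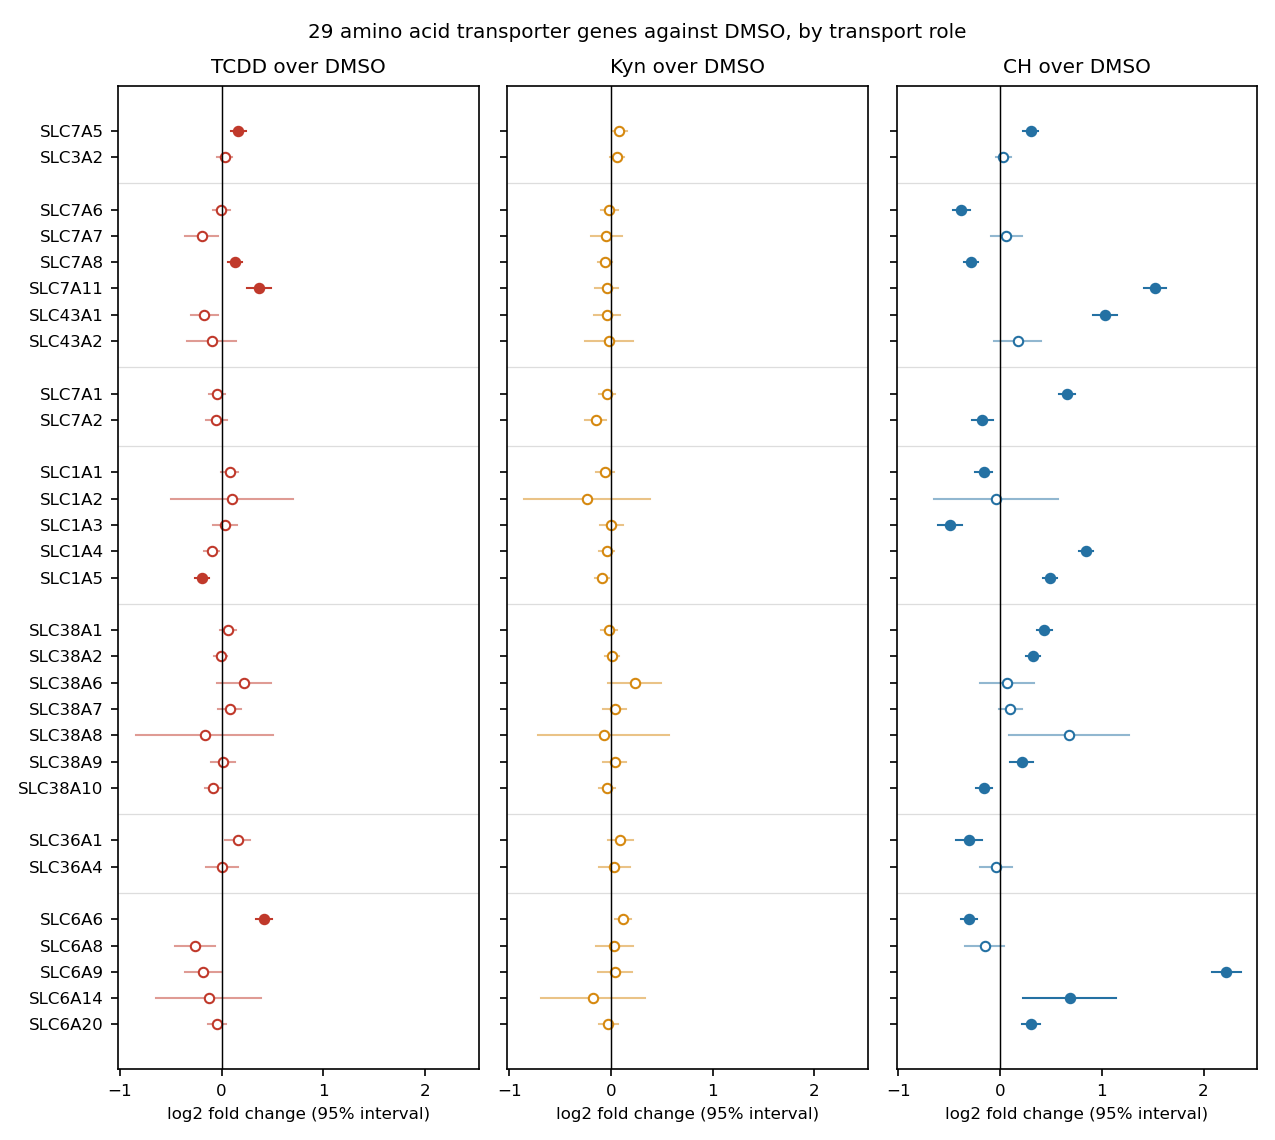
Log2 fold change against DMSO (x axis, with 95% interval) of 29 transporter genes (rows, grouped by transport role) with TCDD, Kyn and CH. Filled points passed an adjusted p under 0.05 and open points did not; SLC6A18, at 3.16 with TCDD, is left off for scale. With CH the points spread from -0.49 for SLC1A3 to 2.22 for SLC6A9, and with Kyn no point is filled, the interval excluding 0 for SLC7A5, SLC1A5, SLC6A6 and SLC7A2.

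SLC7A5 and SLC3A2, the kynurenine carrier pair, had the highest levels per kilobase of transcript. SLC7A5 rose with TCDD and with CH, and SLC3A2 was not called in any comparison. SLC7A5 read 1540.4, 1478 and 1460.2 CPM with TCDD, 1393, 1396 and 1445 CPM with Kyn and 1723, 1660.4 and 1534 CPM with CH, against 1361, 1283 and 1351 CPM in DMSO. All libraries of the 3 exposed groups lay above all DMSO libraries, and CH and TCDD overlapped at the lowest CH library. Its log2 fold change over DMSO was 0.16 ± 0.0355 (SE) with TCDD (adjusted p = 0.0016) and 0.30 ± 0.0355 with CH (adjusted p = 2.8e-08). With Kyn it was 0.08, with a 95% interval of 0.01 to 0.16 and an adjusted p of 0.63. The difference of TCDD from CH was -0.13 ± 0.0355 (adjusted p = 0.0028), and without CH replicate 1 it was -0.10 with an adjusted p of 0.051.

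SLC3A2, the heavy chain, read 752, 766 and 713 CPM with TCDD, 765, 742 and 771 CPM with Kyn and 759.5, 727 and 744 CPM with CH, against 764, 683 and 737 CPM in DMSO. The 4 groups overlapped. Its log2 fold change over DMSO was 0.03 with TCDD (95% interval -0.04 to 0.10), 0.06 with Kyn (-0.01 to 0.13) and 0.03 with CH (-0.04 to 0.10), and the joint test of the 4 groups had an adjusted p of 0.52. The sign with TCDD and CH rested on DMSO replicate 2, without which both values were -0.01. The intervals limit any change to less than the rise of SLC7A5 with CH. Taken within each library, the level of SLC7A5 per kilobase over that of SLC3A2 was 0.847, 0.798 and 0.848 with TCDD, 0.754, 0.779 and 0.776 with Kyn and 0.939, 0.945 and 0.853 with CH, against 0.737, 0.777 and 0.759 in DMSO. The ratio averaged 0.831 ± 0.0283 with TCDD and 0.912 ± 0.0510 with CH, against 0.758 ± 0.0201 in DMSO (SD, n = 3), without overlap, and the exact two-sided permutation p was 0.1 in each case, the smallest that 3 against 3 libraries can give. With Kyn it averaged 0.770 ± 0.0137 and overlapped DMSO (exact permutation p = 0.6). SLC7A5 has 2 pseudogenes, SLC7A5P1 and SLC7A5P2, at 1.89 and 1.74 CPM, so the reads counted on them are few beside its own. Reads that aligned to several places were counted on no gene, so these levels cannot show how many reads match both.

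**Figure D2:**
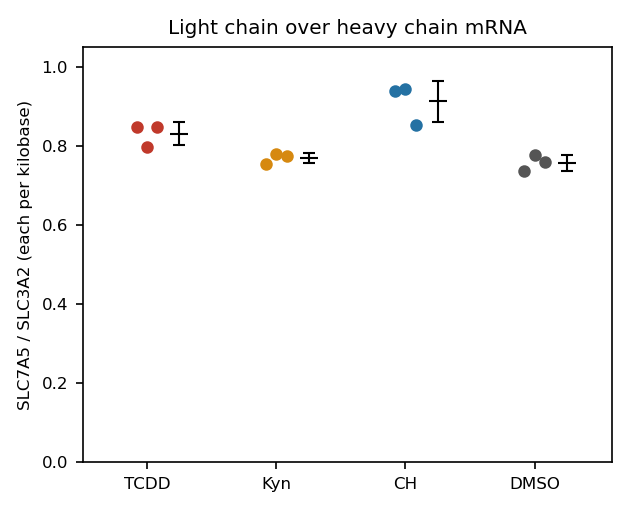
SLC7A5 CPM per kilobase divided by SLC3A2 CPM per kilobase (y axis) in each library (coloured points) by group, with mean and SD in black. CH libraries lie at 0.853 to 0.945 and TCDD libraries at 0.798 to 0.848, above the DMSO range of 0.737 to 0.777, which the Kyn libraries overlap.

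Among the other partners of the heavy chains and the related system L carriers, 2 of 6 rose and 2 fell with CH (15.9% and 16.9% of all genes), and 2 rose and 0 fell with TCDD (5.91% and 5.83%). SLC7A11, the cystine and glutamate exchanger that supplies cysteine for glutathione, read 42.3, 42.2 and 45.5 CPM with TCDD, 29.7, 36.4 and 31.9 CPM with Kyn and 101, 95.02 and 94.8 CPM with CH, against 32.2, 35.2 and 33.5 CPM in DMSO. Libraries of CH and of TCDD each stood clear of DMSO, CH well above TCDD, and Kyn overlapped DMSO. It rose over DMSO by a log2 fold change of 1.52 ± 0.0527 with CH (2.88-fold, adjusted p = 6.3e-23) and 0.37 ± 0.0567 with TCDD (1.29-fold, adjusted p = 2e-05). With Kyn it was -0.04 (95% interval -0.16 to 0.07), and without Kyn replicate 1 it was 0.03. Its antisense gene SLC7A11-AS1 had 0.145 CPM.

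SLC43A1, known as LAT3, a facilitator of branched-chain and other large neutral amino acids, read 15.5, 18.9 and 18.2 CPM with TCDD, 19.3, 20.2 and 18.3 CPM with Kyn and 39.8, 40.6 and 40.8 CPM with CH, against 20.4, 19.1 and 19.8 CPM in DMSO. Every CH library stood far above any other library. Its log2 fold change with CH was 1.03 ± 0.0585 (2.04-fold, adjusted p = 1.3e-16). All 3 TCDD libraries lay below DMSO, at a log2 fold change of -0.17 that missed the threshold (adjusted p = 0.086).

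SLC7A8, known as LAT2, exchanges neutral amino acids and pairs with SLC3A2. It read 517, 495 and 483 CPM with TCDD, 428, 431 and 452 CPM with Kyn and 380.3, 363 and 373 CPM with CH, against 473, 449 and 442 CPM in DMSO. TCDD lay above and CH below all DMSO libraries. Against DMSO it changed by 0.13 ± 0.0345 (log2) with TCDD (adjusted p = 0.0092) and -0.29 ± 0.0347 with CH (adjusted p = 3.7e-08). The TCDD call was lost without TCDD replicate 1 (0.10, adjusted p = 0.086) and without DMSO replicate 3 (0.11, adjusted p = 0.074). SLC7A6, which exchanges cationic for neutral amino acids, read 101, 102 and 104 CPM with TCDD, 93.7, 101 and 108 CPM with Kyn and 80.7, 77.5 and 77.0 CPM with CH, against 101, 101 and 105 CPM in DMSO. Only CH stood apart, below the rest, at a log2 fold change of -0.38 ± 0.0426 (adjusted p = 7.9e-09). SLC7A7, its relative, and SLC43A2, a relative of SLC43A1, were not called against DMSO and averaged 11.1 to 13.3 and 5.24 to 6.31 CPM over the 4 groups.

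**Figure D3:**
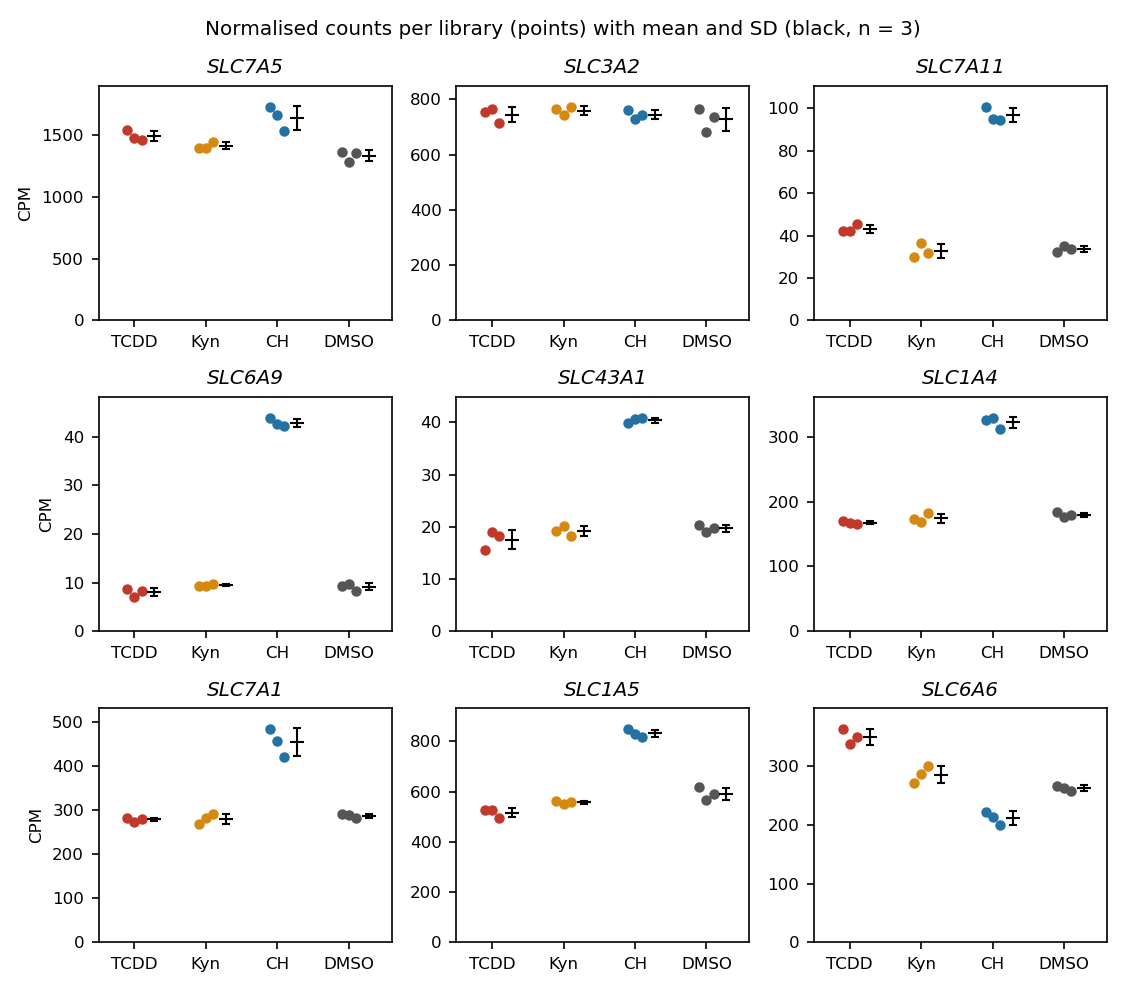
CPM (y axis, from 0) of 9 transporter genes in each library (coloured points, 3 per group) with the mean and SD in black. SLC7A11, SLC6A9, SLC43A1, SLC1A4, SLC7A1 and SLC1A5 are highest with CH, SLC6A6 is highest with TCDD and lowest with CH, and the SLC3A2 groups overlap.

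Of the 2 cationic carriers, SLC7A1 rose and SLC7A2 fell with CH. SLC7A1, known as CAT1, takes up arginine and lysine, and its promoter stretch with the C/EBP-ATF letters is shown above. It read 283, 274 and 280.4 CPM with TCDD, 269, 281 and 291 CPM with Kyn and 484, 457 and 420.3 CPM with CH, against 292, 289 and 281 CPM in DMSO. CH stood apart and the other groups overlapped. With CH the log2 fold change was 0.66 ± 0.0382 (adjusted p = 3.4e-16), against -0.04 with TCDD and -0.04 with Kyn, neither called. SLC7A2 averaged 47.4 CPM with TCDD, 44.4 CPM with Kyn and 43.5 CPM with CH, against 49.2 CPM in DMSO. Its log2 fold change over DMSO was -0.17 with CH (adjusted p = 0.0065) and -0.05 with TCDD (adjusted p = 0.56). With Kyn it was -0.15, not called (adjusted p = 0.35), though all Kyn libraries lay below all DMSO libraries. The difference of Kyn from CH was 0.02 (adjusted p = 0.75), so the fall of SLC7A2 was not shown to be particular to CH.

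The SLC1 family moved in opposite directions with CH. SLC1A4 and SLC1A5, exchangers of small neutral amino acids (SLC1A5, known as ASCT2, is a main route for glutamine), rose. SLC1A1 and SLC1A3, carriers of glutamate and aspartate, fell. SLC1A5 read 529, 527 and 494 CPM with TCDD, 563, 551 and 561 CPM with Kyn and 848, 830.2 and 818 CPM with CH, against 617, 568 and 592 CPM in DMSO. CH lay above DMSO in every library, and the TCDD and Kyn libraries lay below it. The log2 fold change was -0.20 ± 0.0338 with TCDD (adjusted p = 9.8e-05) and 0.49 ± 0.0335 with CH (adjusted p = 3.6e-14), and the difference of TCDD from CH was -0.69 ± 0.0337 (adjusted p = 1.4e-18). With Kyn the value was -0.08 (95% interval -0.15 to -0.02, adjusted p = 0.55).

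SLC1A4, known as ASCT1, read 170.2, 167 and 165 CPM with TCDD, 172, 169 and 182 CPM with Kyn and 326, 328 and 312 CPM with CH, against 183, 176 and 179 CPM in DMSO. Its CH libraries stood far above all others. It rose with CH by a log2 fold change of 0.84 ± 0.0343 (adjusted p = 7.8e-21). All TCDD libraries lay below DMSO, at -0.10 (adjusted p = 0.063). SLC1A3, a glutamate carrier best known from astrocytes, read 33.6, 31.98 and 34.4 CPM with TCDD, 31.4, 31.4 and 35.5 CPM with Kyn and 24.0, 23.9 and 21.3 CPM with CH, against 32.9, 34.1 and 30.8 CPM in DMSO. CH was below every other library, at a log2 fold change of -0.49 ± 0.0593 (adjusted p = 3.8e-08). It held the C/EBP-ATF letters too, as did SLC1A4 and SLC1A5, each in only part of its windows. SLC1A1 fell by 0.16 on the log2 scale with CH (adjusted p = 0.0033), to 81.3 CPM against 91.0 CPM in DMSO. For SLC1A1 the difference of Kyn from CH was 0.105 (adjusted p = 0.058), so its fall was not shown to be particular to CH. SLC1A2 averaged 0.629 to 0.794 CPM and was called in no comparison.

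In the SLC38 family of sodium-coupled and lysosomal carriers, 3 of 7 genes rose and 1 fell with CH (15.9% and 16.9% of all genes). None was called with TCDD (5.91% and 5.83% of all genes) or with Kyn (0.154% and 0.14%). In these, 1 and 0 had an unadjusted p under 0.05 by edgeR. SLC38A1 (SNAT1) and SLC38A2 (SNAT2) take up glutamine and alanine with sodium. SLC38A1 read 471, 446 and 469.6 CPM with TCDD, 404, 452 and 455 CPM with Kyn and 609.9, 602 and 581 CPM with CH, against 431, 444 and 452 CPM in DMSO. SLC38A2 read 406, 406 and 398 CPM with TCDD, 399.7, 406 and 419.6 CPM with Kyn and 518, 509.8 and 495 CPM with CH, against 408, 415 and 394 CPM in DMSO. For these genes CH alone stood apart from DMSO, above it. With CH the log2 fold change was 0.43 ± 0.0370 for SLC38A1 (adjusted p = 1.4e-11) and 0.32 ± 0.0322 for SLC38A2 (adjusted p = 5.5e-10). SLC38A9, a lysosomal carrier that senses arginine, rose by 0.21 with CH (adjusted p = 0.0031), at 23.7 CPM against 20.5 CPM in DMSO. SLC38A10 fell by 0.16 with CH (adjusted p = 0.0023), at 189 CPM against 211 CPM in DMSO. For SLC38A10 the difference of TCDD from CH was 0.07 (adjusted p = 0.15), so its fall was not shown to be particular to CH. SLC38A6 and SLC38A7 were not called against DMSO. SLC38A8, at 1.17 CPM with CH against 0.748 CPM in DMSO, had a log2 fold change of 0.68 (adjusted p = 0.064), and passed without DMSO replicate 2 or without CH replicate 3.

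SLC36A1, a proton-coupled carrier that exports small amino acids from lysosomes, read 38.4, 30.9 and 35.1 CPM with TCDD, 31.1, 34.6 and 34.4 CPM with Kyn and 25.4, 25.2 and 25.2 CPM with CH, against 30.01, 31.7 and 31.96 CPM in DMSO. The CH libraries were the lowest and close to each other. The log2 fold change with CH was -0.30 ± 0.0614 (adjusted p = 0.00019) and with TCDD 0.16 (adjusted p = 0.08). SLC36A4 had 12.1 to 12.7 CPM in the group means and was not called.

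The sodium and chloride-coupled SLC6 carriers held the greatest rise with CH among the 30 genes. SLC6A9, known as GlyT1, which takes up glycine, read 8.67, 7.16 and 8.38 CPM with TCDD, 9.40, 9.27 and 9.69 CPM with Kyn and 43.8, 42.7 and 42.2 CPM with CH, against 9.30, 9.83 and 8.403 CPM in DMSO. The CH libraries stood several times above all others. The log2 fold change with CH was 2.22 ± 0.0695 (4.67-fold, adjusted p = 9.5e-25), and with TCDD -0.18 (adjusted p = 0.17). With Kyn it was 0.04 (95% interval -0.12 to 0.21), and -0.02 without DMSO replicate 3. CCDC24, which overlaps SLC6A9 on the other strand, averaged 6.74 CPM with TCDD, 6.10 CPM with Kyn and 7.33 CPM with CH, against 6.83 CPM in DMSO.

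SLC6A6, the taurine carrier, was higher with TCDD and lower with CH. It read 363, 337 and 349 CPM with TCDD, 271, 287 and 299.7 CPM with Kyn and 222, 214 and 199.6 CPM with CH, against 267, 263 and 257 CPM in DMSO. TCDD and Kyn libraries lay above DMSO and CH libraries below it. The log2 fold change was 0.41 ± 0.0384 with TCDD (adjusted p = 4.6e-10) and -0.31 ± 0.0390 with CH (adjusted p = 1.1e-07). With Kyn it was 0.12 (95% interval 0.04 to 0.20, adjusted p = 0.3). The difference of TCDD from CH was 0.72 ± 0.0388 (adjusted p = 2.4e-17).

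SLC6A20, a carrier of proline and other imino acids, read 73.5, 71.0 and 74.6 CPM with TCDD, 68.5, 76.3 and 77.5 CPM with Kyn and 95.5, 93.8 and 89.1 CPM with CH, against 73.8, 74.6 and 77.5 CPM in DMSO. CH alone stood apart, above the rest, at a log2 fold change of 0.30 ± 0.0432 (adjusted p = 9.9e-07). SLC6A14, a carrier of neutral and cationic amino acids, was rare, at 0.773, 1.18 and 1.11 CPM with TCDD, 0.926, 0.897 and 1.13 CPM with Kyn and 2.23, 1.61 and 1.47 CPM with CH, against 1.33, 0.868 and 1.14 CPM in DMSO. Its log2 fold change with CH of 0.68 ± 0.225 (adjusted p = 0.017) was 0.68 with DESeq2 (adjusted p = 0.053), 0.53 without DMSO replicate 2 (adjusted p = 0.1) and 0.48 without CH replicate 1 (adjusted p = 0.16), where it missed the threshold. The creatine carrier SLC6A8 was not called against DMSO, and averaged 7.71 CPM with TCDD, 9.49 CPM with Kyn and 8.34 CPM with CH, against 9.25 CPM in DMSO.

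SLC6A18, a carrier of neutral amino acids known from kidney, was singled out after its values were seen. It had 38, 13 and 23 reads with TCDD, 12, 14 and 9 reads with Kyn and 2, 1 and 0 reads with CH, against 5, 1 and 3 reads in DMSO. The TCDD libraries held most of its reads, summing to 74 with TCDD, 35 with Kyn and 3 with CH, against 9 in DMSO. No test value is given for it, since its TCDD libraries set its place among the genes kept. Counts over all 30 genes include its calls.

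For Kyn, 5 of the 30 genes, SLC6A18 included, had an unadjusted p under 0.05 with edgeR. The share of all genes at that unadjusted level is not given, so unadjusted counts here and for the lists cannot be set against it. With edgeR or with DESeq2, 0 of the 30 had an adjusted p under 0.05. SLC6A6 became the 1 called gene, higher, when Kyn replicate 1 was left out and again when trends with GC content and transcript length were removed, an alternative added after the data were seen. The median absolute log2 fold change of the 30 genes with Kyn was 0.04, against 0.05 over all genes. A change of the size that CH gave in SLC7A11, SLC6A9, SLC43A1, SLC1A4, SLC7A1 or SLC1A5 lay outside the 95% interval for Kyn in each of these genes.

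The exposed groups were also compared with each other. TCDD against CH gave 7 genes higher and 14 lower of 30, where 19% and 18.1% of all genes were called, and Kyn against CH gave 7 higher and 13 lower, where 16.6% and 16.4% were. TCDD against Kyn gave 5 higher and 2 lower, where 5.1% and 4.09% of all genes were called. Without SLC6A18, for the reason given above, the counts of 29 genes were 6 higher and 14 lower for TCDD against CH, 6 and 13 for Kyn against CH, and 4 and 2 for TCDD against Kyn. The 4 higher ones were SLC6A6 at a log2 fold change of 0.29 (adjusted p = 9.6e-07), SLC7A11 at 0.41 (3.2e-06), SLC7A8 at 0.19 (0.00023) and SLC1A1 at 0.14 (0.038), and the lower ones were SLC1A5 at -0.11 (0.03) and SLC6A8 at -0.30 (0.043). SLC6A6, SLC7A11 and SLC7A8 were called whichever library was left out. Of the 7 calls, SLC6A18 included, 4 remained without TCDD replicate 1 or without Kyn replicate 3, and 3 without TCDD replicate 3 or without Kyn replicate 1. For SLC7A5 the difference of TCDD from Kyn was 0.08 (95% interval 0.01 to 0.15, adjusted p = 0.16), and for SLC3A2 it was -0.03 (-0.10 to 0.04, adjusted p = 0.69). Over the 4 groups jointly, 23 of 30 genes differed, where 43.6% of all genes did. SLC6A18 was among the 23, and its high TCDD libraries had put it among the 30 genes.

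The genes span a wide range of levels. Per kilobase of the canonical transcript (GENCODE 44), the DMSO libraries ranked SLC3A2 first at 362 to 405 CPM per kilobase, then SLC7A5 at 282 to 299, SLC1A5 at 197 to 214, SLC7A8 at 104 to 112, SLC38A2 at 82.2 to 86.6, SLC38A1 at 53.3 to 55.8 and SLC38A10 at 44.9 to 49.6, and none of these neighbours overlapped. SLC6A6, SLC1A4 and SLC7A1 overlapped in turn at 38.3 to 41.1 CPM per kilobase. At the lower end SLC6A14 had 0.191 to 0.294 and SLC1A2 0.0482 to 0.0734 CPM per kilobase, which SLC6A18 overlapped at 0.0173 to 0.0910. SLC6A9 stood 22nd in DMSO at 2.86 ± 0.225 CPM per kilobase and reached 13.4 ± 0.258 with CH. SLC7A11 reached 10.0 ± 0.339 with CH, against 3.49 ± 0.160 in DMSO. All 30 genes together took 0.565 ± 0.00983% of the reads with TCDD, 0.545 ± 0.0136% with Kyn and 0.657 ± 0.0205% with CH, against 0.540 ± 0.00890% in DMSO (SD, n = 3 each).

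**Figure D4:**
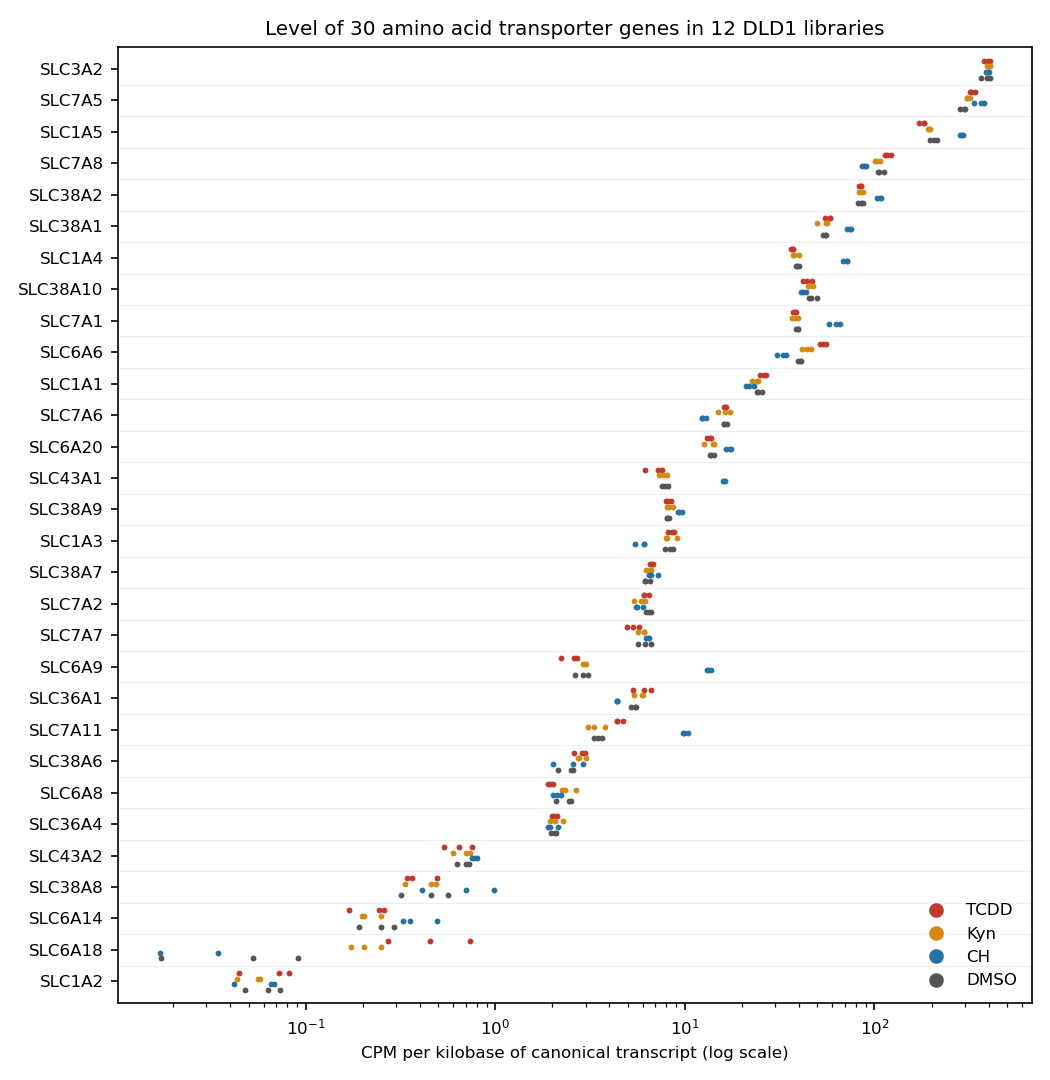
CPM per kilobase of canonical transcript (x axis, log scale) of the 30 transporter genes (rows, ordered by mean) in each of 12 libraries, coloured by group. SLC3A2 and SLC7A5 lie highest and SLC1A2 has the lowest mean, and the CH points of SLC6A9, SLC7A11, SLC43A1 and SLC1A4 lie to the right of the other groups; the CH library with 0 reads of SLC6A18 cannot be drawn on this axis.

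Genes outside the 7 families were read from lists written for this description with earlier results of these data known, so their counts are descriptive. Of 30 genes of the ATF4 programme, 26 were higher and 3 lower with CH (15.9% and 16.9% of all genes), with a median log2 fold change of 0.90. DDIT4, an inhibitor of the growth kinase complex mTORC1, reached 270.3 ± 10.8 CPM with CH, against 51.5 ± 1.24 CPM in DMSO (log2 fold change 2.39, adjusted p = 6.9e-32). ASNS, which makes asparagine, was at 382 ± 6.27 CPM with CH against 143 ± 3.30 CPM in DMSO (1.41, adjusted p = 1.2e-27). CHAC1, which breaks down glutathione, rose by 1.94 (adjusted p = 5.4e-25) and PSAT1, of serine synthesis, by 1.13 (adjusted p = 1.3e-25). With TCDD 3 of these 30 were higher and 4 lower (5.91% and 5.83% of all genes), with a median log2 fold change of -0.05. PHGDH was among the 4 lower (-0.18, adjusted p = 0.001). The higher ones were DDIT4 (0.58, adjusted p = 4.7e-12), GDF15 (0.42, adjusted p = 8.1e-11) and PPP1R15A (0.37, adjusted p = 7.5e-08). Of these, GDF15 and PPP1R15A were lower with CH. With Kyn 0 were higher and 0 lower (0.154% and 0.14% of all genes), with 3 at an unadjusted p under 0.05. ATF4 was itself at 523 ± 10.5 CPM with CH against 275 ± 12.8 CPM in DMSO (0.93, adjusted p = 2.2e-21). That value, and the names of the 3 genes lower with CH, ALDH18A1, GDF15 and PPP1R15A, were picked after they were seen. Set beside the promoter letters, 4 of the 11 genes higher with CH that had a promoter in the table held the C/EBP-ATF element (SLC7A1, SLC1A4, SLC1A5 and SLC38A1), as did 1 of 6 lower (SLC1A3) and 1 of 9 not called (SLC3A2). SLC6A9 and SLC43A1, which rose most among these 11, did not hold it in any window. The AHR core was in 7 of the 11 higher, 5 of the 6 lower and 5 of the 9 not called.

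Of 18 amino acid carriers of other families that were tested, 0 were higher and 7 lower with CH (15.9% and 16.9% of all genes), with a median log2 fold change of -0.14. The mitochondrial glutamate carrier SLC25A22 averaged 111 ± 3.77 CPM with CH against 134 ± 3.27 CPM in DMSO (-0.27, adjusted p = 3.1e-07), and the mitochondrial serine carrier SFXN1 182 ± 4.04 CPM against 216 ± 4.53 CPM (-0.25, adjusted p = 4.7e-07). SLC17A5, a lysosomal sialic acid and acidic amino acid carrier, fell by 0.28 with CH (adjusted p = 1.1e-05). With TCDD 0 were higher and 3 lower (5.91% and 5.83% of all genes). The 3 were MFSD12, CLN3 and PQLC2, at -0.18 to -0.16. With Kyn 0 were higher and 0 lower (0.154% and 0.14% of all genes), with 1 at an unadjusted p under 0.05.

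**Figure D5:**
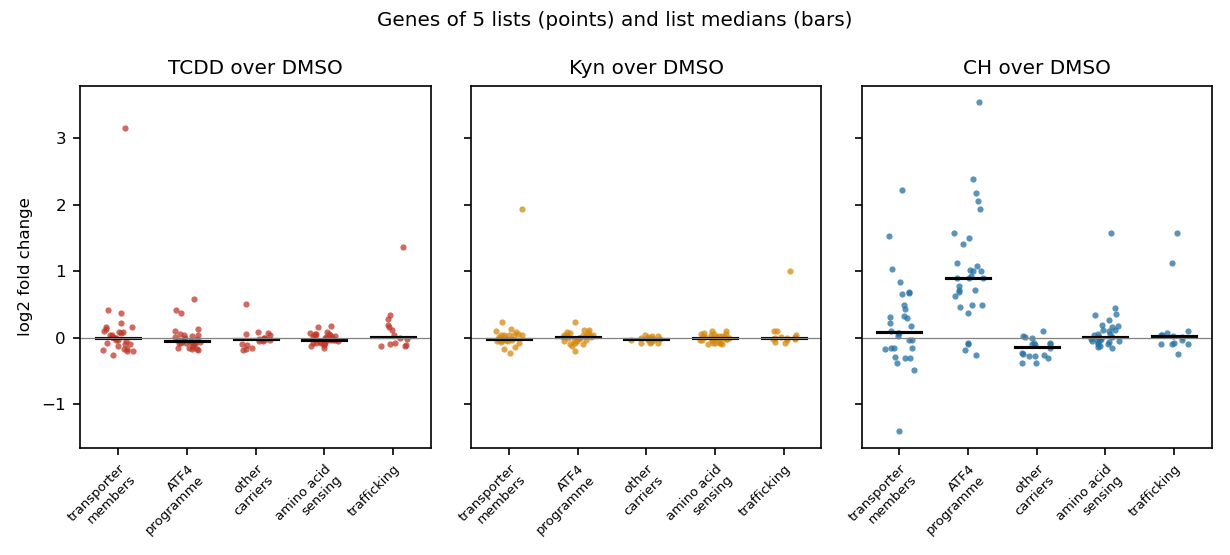
Log2 fold change against DMSO (y axis) of each gene (points) in 5 lists with TCDD, Kyn and CH, with list medians as bars. With CH the ATF4 programme has a median of 0.90 and the transporters 0.08, with single transporters up to 2.22, while the other carriers have a median of -0.14; in the TCDD panel the highest transporter point is SLC6A18 at 3.16.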

How the data were processed

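The authors deposited raw read counts per gene symbol for 12 libraries. Per the submitters' processing notes, the tools were Trim Galore, STAR 2.7.2b, SAMtools 1.9 and HTSeq with hg38; per the labels' protocol, alignment used another STAR version. No strand setting for HTSeq is given in the sources used here, so genes overlapping on opposite strands may share reads. Summary counters (20.3 to 23.6% of reads) were left out. Counts were fitted in R 4.3.3 with edgeR 4.0.16: filterByExpr with a minimum count of 10, TMM factors (0.988 to 1.02), 1 coefficient per group over 12 libraries, quasi-likelihood F tests, and Benjamini-Hochberg adjustment over 13619 genes per comparison. Unless another tool is named, adjusted p-values are from these edgeR tests (n = 3 per group), and a gene was called at an adjusted p under 0.05. The ± after a fold change is its standard error. Per-library values were given for SLC7A5, SLC3A2, SLC7A11, SLC6A9, SLC1A5 and for further members called against DMSO at a mean of at least 1 CPM, up to the 16 with the largest changes; SLC6A18 was added after its values were seen. From each other list up to 4 called genes of smallest p were named. Members and lists were chosen with earlier results of these data known. Gene models came from GENCODE 44 and promoters from RefSeq. Each library was left out in turn; other alternatives were DESeq2 1.42.0, fits restricted to the compared groups, RLE factors or plain library totals, no filter or a stricter one (5 CPM in 3 libraries), and a replicate block. In simulated data the procedure called 26 of 50 planted log2 changes of 0.2 and 31 of 50 of 0.4. At 0.8 and 1.6 it called 42 and 49 of 50, so a gene not called may still differ.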

Additional observations from a re-analysis of the deposited data

How the results depend on the processing

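Across 82 member results and 1627 recomputed values, 1578 kept direction and call, 45 lost the call and 4 turned sign, none of these 4 called; 74 of the 82 were called to begin with, so few could gain a call. Over all 30 genes and 6 comparisons, 13 further calls appeared under at least 1 alternative, 7 of them against DMSO: SLC1A4, SLC6A8, SLC7A7, SLC36A1 and SLC43A1 with TCDD, SLC6A6 with Kyn and SLC38A8 with CH. With single libraries left out, the log2 fold change of SLC3A2 over DMSO was -0.013 to 0.067 with TCDD and -0.013 to 0.066 with CH (lowest without DMSO replicate 2), that of SLC7A11 with Kyn -0.13 to 0.026 (highest without Kyn replicate 1), and that of SLC6A9 with Kyn -0.018 to 0.095 (lowest without DMSO replicate 3). The count of members called with Kyn against DMSO was 0 to 1 when single libraries were left out and 1 after removing trends with GC and transcript length, and with TCDD against Kyn it was 3 to 7; the cause was not tested. The number of members was 31 at 0.2 CPM and 29 at 0.5 CPM. Deviation correlations gave no sign that replicate numbers paired the samples (-0.055 to 0.037 in 18 same-number pairs, -0.053 to 0.083 in 36 others). They do not exclude shared handling of libraries. With the replicate block the counts of called members were 6 with TCDD, 0 with Kyn and 20 with CH against DMSO, 21 with TCDD and 19 with Kyn against CH, and 7 with TCDD against Kyn; SLC38A8 was the 1 call lost. Genes under 1 CPM are limited by depth.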

Other observations

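Genes that sense amino acids and genes that control carriers at the membrane were read from lists of their own, also chosen with earlier results known. Of 30 amino acid sensing genes, 7 were higher and 2 lower with CH against DMSO (23.3% and 6.67%, where 15.9% and 16.9% of all genes were). With TCDD 0 were higher and 0 lower (5.91% and 5.83% of all genes), and 4 had an unadjusted p under 0.05 by edgeR. With Kyn 0 were higher and 0 lower (0.154% and 0.14% of all genes), and 0 had an unadjusted p under 0.05. SESN2, a leucine sensor upstream of mTORC1 that is also in the ATF4 list, averaged 66.2 ± 3.99 CPM with CH against 22.3 ± 2.16 CPM in DMSO (log2 fold change 1.57, edgeR adjusted p = 1e-22). Its relative SESN3 rose by 0.44 (adjusted p = 3.9e-09).

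Of 14 tested genes of carrier trafficking and stability, 4 were higher and 0 lower with TCDD (5.91% and 5.83% of all genes). With Kyn 0 were higher and 0 lower (0.154% and 0.14% of all genes), and 0 had an unadjusted p under 0.05. With CH 2 were higher and 4 lower (14.3% and 28.6%, where 15.9% and 16.9% of all genes were). ARRDC3, an arrestin-like adaptor, averaged 12.1 ± 0.416 CPM with CH against 5.58 ± 0.413 CPM in DMSO (log2 fold change 1.12, adjusted p = 2.2e-11). NEDD4, a ubiquitin ligase that marks membrane proteins for removal, averaged 57.2 ± 0.829 CPM with TCDD against 45.1 ± 3.76 CPM in DMSO (0.34, adjusted p = 2.8e-05). ARRDC4, an arrestin-domain protein related to ARRDC3, had a log2 fold change of 0.27 with TCDD (adjusted p = 0.00062) and of -0.25 with CH (adjusted p = 0.00058).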
